A study of Oryza sativa with 8 samples.

Results

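The AP2/ERF transcription factors of rice were followed as 76 genes out of 46120 genes in the deposited table. They were chosen by words of the deposited description: an ERF or AP2 domain, AP2/ERF, ethylene-responsive, or DREB. Of these, 67 carry an AP2/ERF family number or domain in the annotation, so the name holds for most of the set. The other 9 were caught by wording alone. A pair of them, Os03g0120900 and Os11g0156000, encode B3-domain proteins without an AP2/ERF domain, and 7 belong to other families, such as the methionine synthase Os12g0623900, the small GTP-binding protein Os07g0239400 and the adaptor subunit Os08g0243900. Annotation by wording also missed relatives: 155 genes carry an AP2/EREBP number, of which 89 lie outside the set, DREB2A among them.

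AP2/ERF proteins are plant transcription factors named after the DNA-binding domain they share. ERF-type members are known for binding GCC-box promoters downstream of ethylene and pathogen signals, and DREB-type members for binding dehydration-responsive elements in genes of drought, cold and salt tolerance. AP2-type members are known for floral and meristem development, and RAV-type members carry a B3 domain beside the AP2 domain.

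The data come from the cultivar Tsukinohikari (Oryza sativa), grown in hydroponics with sufficient iron and profiled by Lasy-Seq, a pooled RNA-seq library method primed at the poly(A) tail. There were 8 libraries: roots and leaves of the non-transformant (NT) and of 3 lines overexpressing the bZIP factor gene OsbZIP83. Those lines, named b83OX-13, b83OX-15, b83OX-19 in the labels, appear below as line 13, line 15 and line 19. Every plant was iron-sufficient, each line gave 1 library per tissue, and so did NT, which is unreplicated. The sources used here state neither the promoter of the transgene, nor plant age, nor whether plants were pooled for a library. The p-values therefore reflect the spread among these libraries alone.

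Values are reads per 1000000 (RPM), scaled by the authors so that the genes of a library sum to 1000000. They are not divided by transcript length, so levels are compared between libraries for 1 gene and not between genes. Estimated depth was 17000000 to 35700000 gene reads per library, and 27956 to 31186 genes were above 0. OsbZIP83 (Os12g0152900) itself was at 32.0 RPM in NT roots and 154 to 188 RPM in line roots, and at 1.62 RPM in NT leaves and 75.3 to 100.5 RPM in line leaves. Summed over 8 photosynthesis genes used as leaf markers, leaf libraries held 76482 to 97271 RPM, and over 7 root markers the root libraries held 7023 to 9159 RPM. Root markers summed to at most 4.35 RPM in leaves, and leaf markers to at most 3.95 RPM in the roots of the lines. NT roots held 190.2 RPM of leaf markers, from 1 of the 8 genes, CAB1R. A deduction inferred below, of 0.148% to 0.158% of a gene's total across libraries, would lower marker values in the other tissue. Low sums therefore cannot show that a library was free of the other tissue.

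Expression of the set ranged widely. Averaged over the 8 libraries, 52 of the 76 genes reached 1 RPM, and only these were tested. Of all 46120 genes, 21991 reached that mean. The other 24 genes of the set had means of at most 0.901 RPM. ERF117 (Os05g0351200) was listed at 0 in all 8 libraries, and 12 of the 76 were listed at 0 in all 4 leaf libraries against 2 in all 4 root libraries. The same count over all genes was not made. Over all genes, 29428 to 31186 were above 0 in root libraries and 27956 to 29506 in leaf libraries. By the words of the deposited annotation, 18 genes were DREB-type (10 tested), 33 ERF-type (23 tested), 3 AP2-type (2 tested), 1 RAV-type and 12 could not be placed (9 tested). No tested gene of the set had values identical to those of another gene.

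**Figure D1:**
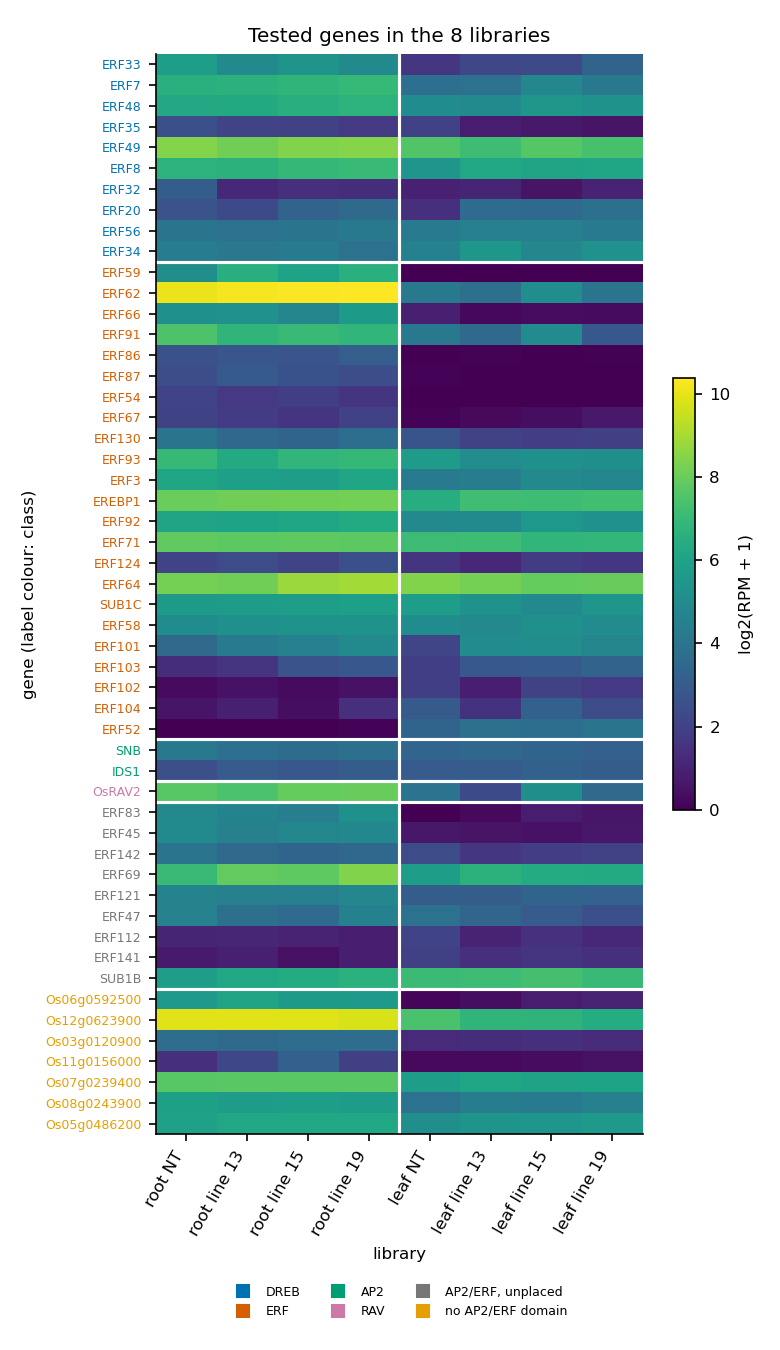
Level of the 52 tested genes as log2(RPM + 1), 1 row per gene and 1 column per library, with rows grouped by class and, within a class, ordered from root-high to leaf-high. The columns split into roots and leaves more visibly than into NT and lines: ERF62 is brighter in all 4 root libraries than in any leaf library, and ERF59 and ERF54 are at or near 0 in all 4 leaf libraries.

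The tissue comparison asked where these factors are expressed. Their summed RPM was higher in roots: the 67 AP2/ERF genes summed to 3765 to 4638 RPM in root libraries and to 1389 to 1527 RPM in leaf libraries. A large part of that gap came from 1 gene, ERF62, at 1083 to 1326 RPM in roots and 13.2 to 33.1 RPM in leaves. Of the 52 tested genes, 37 were higher in roots, 7 were higher in leaves and 8 did not pass (limma on log2(RPM + 1), 4 root against 4 leaf libraries, Benjamini-Hochberg adjusted p under 0.05). That is 84.6% called, where 82.7% of all 21991 tested genes were called, so the share called does not set the family apart. Of all tested genes 58.5% were higher in roots and 24.2% higher in leaves.

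The scale on which roots and leaves are compared matters for this split. The median root-minus-leaf difference was 1.19 on the log2 scale over the 52 genes and 0.59 over all tested genes. Over the 43 tested AP2/EREBP-numbered genes outside the set it was 0.48. Rescaling with TMM brought the median of all genes to 0.07, and then 29 of the 52 were higher in roots and 11 in leaves, beside 42.3% and 37.6% of all genes. Fewer cells of a type and less RNA per cell cannot be told apart in such bulk samples.

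Without a test, 35 of the 52 (67.3%) had all 4 root libraries above all 4 leaf libraries, beside 55.4% of all tested genes. The reverse held for 7 (13.5%), beside 22.8%.

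Among ERF-type genes, 19 of 23 were called between the tissues (82.6%, beside 82.7% of all tested genes), 16 of them higher in roots, so the share called is that of genes in general. ERF62 (Os03g0183000), known in rice as LG3 for its effect on grain length, was at 1083 RPM in NT roots and at 1210.0, 1272 and 1326 RPM in the roots of lines 13, 15 and 19. Its leaf levels were 17.1 RPM in NT against 13.2, 33.1 and 15.0 RPM in the lines. The tissues did not overlap, and the mean root level was 62.4 times the mean leaf level (log2 difference 5.98 ± 0.24 SE, adjusted p = 1.11e-08).

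ERF59 (Os10g0390800) was read mainly in roots. It was at 34.0, 90.5, 63.0 and 95.7 RPM in the roots of NT and lines 13, 15 and 19, whereas leaves were listed at 0 in NT and lines 15 and 19 and at 0.0282 RPM in line 13. The difference was 6.05 ± 0.28 on the log2 scale (adjusted p = 3.19e-08). Its leaf values are low, and the size depends on the pseudocount: 9.27 with 0.1 RPM and 3.83 with 5 RPM, beside 6.05 and 5.70 for ERF62.

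ERF66 (Os03g0341000) and ERF67 (Os07g0674800) are ERFs of the group known for submergence responses. ERF66 was at 26.4 to 48.8 RPM in roots and at 0.158 to 0.868 RPM in leaves, and ERF67 at 1.98 to 3.16 RPM in roots and at 0.0678 to 0.622 RPM in leaves. Both were higher in roots, by 4.79 ± 0.21 and 1.5 ± 0.16 on the log2 scale. The drought factor ERF71 (Os06g0194000) spanned 213 to 230.2 RPM in roots and 111 to 139.7 RPM in leaves, a smaller but also non-overlapping difference (0.81 ± 0.09, adjusted p = 1.92e-05). Under TMM that difference was 0.22 with an adjusted p of 0.105.

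In the group of ERFs linked to defence, all 5 tested genes placed in subgroup B-3 were higher in roots, beside 58.5% of all tested genes. Both values are on the deposited scale, and with so few genes no test of this share was made. Under TMM 42.3% of all tested genes were higher in roots, and the count of these 5 on that scale is not given here. ERF91 (Os02g0654700), also known as AP59 or BIERF3, was at 109.7 to 178 RPM in roots and 6.26 to 30.9 RPM in leaves (3.11 ± 0.40). ERF93 (Os04g0546800), also called OsERF1, was at 80.8 to 122 RPM in roots and 33.1 to 52.8 RPM in leaves. ERF92 (Os01g0752500), or OsERF922, a negative regulator of blast resistance, was at 64.2 to 81.0 RPM in roots and 28.7 to 45.7 RPM in leaves. The last of these had the smallest difference of the trio, 0.99 ± 0.15.

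Among genes with no subfamily in the annotation, 6 of 9 were higher in roots and 2 higher in leaves, beside 58.5% and 24.2% of all tested genes. ERF83 (Os03g0860100), known for induction by blast fungus, was at 20.5 to 35.9 RPM in roots, listed at 0 in NT leaves and at 0.185 to 0.802 RPM in line leaves. ERF45 (Os04g0529100) was at 21.8 to 29.3 RPM in roots and 0.416 to 0.597 RPM in leaves, 4.16 ± 0.11 on the log2 scale. SMOS1 (ERF142, Os05g0389000), a regulator of organ size, was at 9.21 to 15.0 RPM in roots and 2.09 to 4.24 RPM in leaves. None of these showed overlap between the tissues.

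Of the DREB-type genes, 6 of 10 were higher in roots and 2 higher in leaves, near the 58.5% and 24.2% of all tested genes. ERF33 (Os04g0549700) was at 30.4 to 55.5 RPM in roots and 2.16 to 8.91 RPM in leaves (2.93 ± 0.33). Its near neighbour by locus number, ERF34 (Os04g0550200), ran the other way, at 14 to 20.3 RPM in roots and 22.8 to 43.8 RPM in leaves (-0.84 ± 0.20, adjusted p = 0.00311). The direction of both held under TMM rescaling. ERF48 (Os08g0408500), known as a drought-responsive factor, was at 74.9 to 105 RPM in roots and 29.2 to 44.5 RPM in leaves. ERF44 (Os08g0565200), also named OsDREB2C, was above 0 in 1 root library alone, at 0.0497 RPM.

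The leaf-high genes were few. ERF52 (Os05g0572000) was listed at 0 in 3 root libraries and at 0.0708 RPM in the fourth, the roots of line 19, while leaves held 9.29, 13.1, 12.5 and 14.8 RPM in NT and lines 13, 15 and 19 (-3.70 ± 0.14, adjusted p = 6.5e-09). SUB1B (Os09g0287000), a gene of the rice submergence locus, was at 54.4 to 97.0 RPM in roots and 125 to 159.6 RPM in leaves (-0.87 ± 0.16). OsEATB (ERF102, Os09g0457900), which restricts internode elongation, was at 0.229 to 0.422 RPM in roots and 0.819 to 3.17 RPM in leaves. ERF104 (Os08g0474000), ERF141 (Os02g0638650) and ERF56 (Os05g0316800) were the remaining leaf-high genes beside ERF34.

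SUB1C (Os09g0286600), which lies beside SUB1B at the submergence locus, was at 49.1 to 56.1 RPM in roots and 30.2 to 54.9 RPM in leaves. Those ranges overlap, and its call for roots (0.39 ± 0.16, adjusted p = 0.0429) was not stable: the adjusted p was 0.143, 0.178 and 0.132 without lines 13, 15 and 19, and 0.0513 with genotype as a block. Its direction turned under TMM (-0.19).

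Among the AP2-type genes, SNB (Os07g0235800) and IDS1 (Os03g0818800), which shape the rice inflorescence, were at 11.7 to 17.6 and 4.79 to 7.34 RPM in roots and at 8.10 to 10.1 and 6.90 to 8.25 RPM in leaves. SNB passed for roots (0.53 ± 0.13), but its direction turned under TMM (-0.013), and IDS1 passed only under TMM and quantile normalization, for leaves (-0.73 and -0.70). The RAV-type gene OsRAV2 (Os01g0141000), annotated for salt response, was at 171 to 251 RPM in roots and 4.10 to 34.5 RPM in leaves (4.0 ± 0.48).

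**Figure D2:**
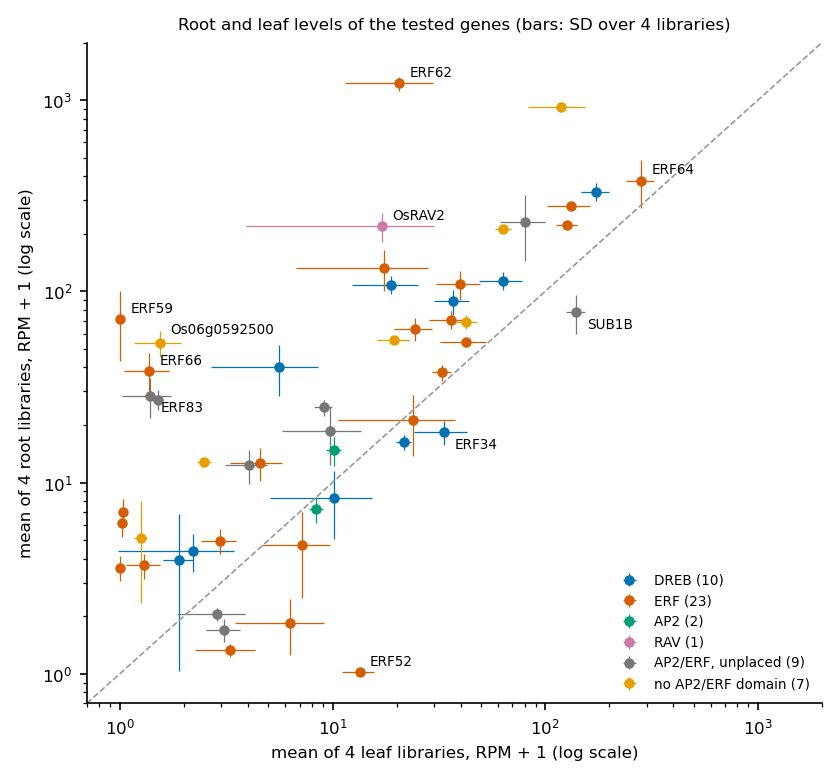
Mean of the 4 root libraries against mean of the 4 leaf libraries for the 52 tested genes, as RPM + 1 on log axes, with SD over 4 libraries as bars and the dashed line marking equality. Most genes lie above the line, ERF59 and ERF62 farthest on this scale, while ERF52 and SUB1B lie below it.

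Genes of a cluster on chromosome 3 differed in tissue pattern. ERF62, ERF69 (Os03g0183200) and ERF64 (Os03g0183300) have nearly consecutive locus numbers. Close to them by locus number is EBP-89 (Os03g0182800), a family member outside the set. Its means were 90.8 RPM in roots and 1.33 RPM in leaves (5.49 ± 0.34). ERF69 was at 125 to 337 RPM in roots and 53.9 to 101 RPM in leaves (1.47 ± 0.29, adjusted p = 0.000948). ERF64 overlapped between tissues, at 280.2 to 484 RPM in roots and 244 to 335 RPM in leaves (0.40 ± 0.20, adjusted p = 0.0848, and -0.19 under TMM); without the NT libraries its adjusted p was 0.0265.

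All 7 tested genes without an AP2/ERF domain were higher in roots, beside 58.5% of all tested genes, a comparison not tested for so few genes. Both values are on the deposited scale. Under TMM 42.3% of all tested genes were higher in roots, and the count of these 7 on that scale is not given here. Os12g0623900, a methionine synthase homologue and so an enzyme of the methionine supply to ethylene synthesis, was at 849 to 965 RPM in roots and 84.8 to 167 RPM in leaves. Os06g0592500, annotated as an ethylene-responsive coactivator, was at 47.8 to 65.5 RPM in roots and 0.148 to 0.971 RPM in leaves (5.14 ± 0.19). These genes share a wording of their description with the AP2/ERF factors and not a domain.

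The main design question was how the OsbZIP83 lines differ from NT. In roots 1 of the 52 genes (1.92%) passed, a decrease, beside 1.16% of all tested genes (0.655% higher, 0.509% lower). At an unadjusted p under 0.05 there were 11, of which 6 were higher and 5 lower, beside 13.5% of all genes. The median difference was 0.04 on the log2 scale over the 52 genes and 0.00 over all genes. All 3 lines lay above NT for 18 genes (34.6%, beside 31.9% of all genes) and below it for 17 (32.7%, beside 33.4%).

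The gene that fell was ERF32 (Os02g0656600), a DREB-type gene of subgroup A-4. Its root level was 7.27 RPM in NT against 1.2, 1.69 and 1.58 RPM in lines 13, 15 and 19, so all 3 lines lay well below NT. The difference was -1.74 ± 0.25 on the log2 scale (limma, adjusted p = 0.0229). In leaves it was at 0.957 RPM in NT against 1.13, 0.449 and 1.05 RPM in the lines, below the NT root level in every library. The NT root library also held the 190.2 RPM of the leaf marker CAB1R given above, while ERF32 in leaves was at most 1.13 RPM; the part of leaf RNA in the ERF32 difference was not tested. The call was lost without line 13 (adjusted p = 0.0716), without line 19 (0.212), with a pseudocount of 0.1 RPM (0.127) and when roots were fitted alone (0.105). None of the 20 neighbouring tested genes of ERF32 was called in roots. With 1.16% of all tested genes called there, a count over 20 genes says little.

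The next 4 genes by p did not pass and are given as values. ERF59 was at 34.0 RPM in NT roots and 90.5, 63.0 and 95.7 RPM in lines 13, 15 and 19 (1.24 ± 0.23, adjusted p = 0.0645). ERF69 was at 125 RPM in NT against 233, 223 and 337 RPM in the lines (1.05 ± 0.24, adjusted p = 0.117). In both, every line lay above NT, but the lines also spread widely. With a pseudocount of 5 RPM, ERF59 passed as well (adjusted p = 0.0381).

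ERF101 (Os04g0398000), known in rice for drought tolerance in reproductive tissue, was at 11.2 RPM in NT roots and 18.7, 21.7 and 29.3 RPM in the lines (0.97 ± 0.25, adjusted p = 0.154). SUB1B was at 54.4 RPM in NT roots and 73.5, 82.3 and 97.0 RPM in the lines (0.61 ± 0.18, adjusted p = 0.206). Again no line overlapped NT. ERF62 differed from NT roots by 0.23 ± 0.42 and ERF71 by -0.09 ± 0.14, neither past the threshold.

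In leaves 5 of the 52 genes (9.62%) passed, 4 higher and 1 lower in the lines, beside 3.79% of all tested genes (2.66% higher, 1.13% lower). No test of that excess was made. At an unadjusted p under 0.05 there were 16 genes, 9 higher and 7 lower, beside 21% of all genes. The median difference was 0.06 over the 52 genes and 0.09 over all genes. All 3 lines lay above NT for 21 genes (40.4%, beside 42.2%) and below it for 13 (25%, beside 20.6%).

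The largest increase was in ERF101. Its leaf level was 3.43 RPM in NT against 30.7, 32.8 and 25.1 RPM in lines 13, 15 and 19 (2.78 ± 0.25, limma adjusted p = 0.00218). The line leaves thus lay within or just above the range of the line roots, 18.7 to 29.3 RPM, while NT leaves lay below NT roots. Without line 13, 15 or 19 the adjusted p was 0.0119, 0.0297 and 0.0162, and with leaves fitted alone it was 0.128.

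ERF20 (Os02g0676800), a DREB-type gene of subgroup A-4, was at 1.66 RPM in NT leaves and 11.3, 10.7 and 13.1 RPM in the lines (2.25 ± 0.43, adjusted p = 0.0359). Its root values were 5.26 RPM in NT against 3.96, 8.85 and 10.9 RPM in the lines, so line 13 lay below NT there and the others above. In leaves the lines sat close together and far from NT.

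EREBP1 and ERF8 rose by less. EREBP1 (Os02g0782700), a factor annotated for defence and abiotic stress, was at 86.3 RPM in NT leaves and 147, 141 and 149 RPM in the lines (0.75 ± 0.10, adjusted p = 0.0106). ERF8 (Os04g0648900), likened in the annotation to DREB2F, was at 41.2 RPM in NT leaves and 74.0, 66.5 and 67.4 RPM in the lines (0.73 ± 0.14, adjusted p = 0.0398). For both, the lines lay within a narrow band above NT. In roots EREBP1 differed by 0.16 ± 0.10 and ERF8 by 0.15 ± 0.14, neither past the threshold.

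The gene that fell in leaves was ERF35 (Os02g0657000), again a subgroup A-4 gene and close to ERF32 by locus number. It was at 3.06 RPM in NT leaves and 0.706, 0.652 and 0.448 RPM in the lines (-1.35 ± 0.19, adjusted p = 0.0131). Its root values were 4.79 RPM in NT against 3.34, 3.01 and 2.44 RPM in the lines (-0.57 ± 0.19, adjusted p = 0.256). The lines lay below NT in both tissues, and the root difference did not pass. Among 20 neighbouring tested genes each, 1 was called in leaves for ERF101, ERF20 and EREBP1, and none for ERF8 and ERF35. Of all tested genes 3.79% were called in leaves.

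The leaf calls differed with the line left out. Without both libraries of line 13 the count was 5, and without line 15 or without line 19 it was 1, ERF101; with line 15 left out the adjusted p was 0.0774 for EREBP1, 0.0780 for ERF35, 0.120 for ERF20 and 0.139 for ERF8, and with line 19 left out 0.0598, 0.0740, 0.138 and 0.130. The differences themselves stayed near those reported, for ERF35 -1.37 without line 15 and -1.27 without line 19. Over all tested genes the calls in leaves fell from 834 to 211 without line 15 and to 90 without line 19. Leaving out the leaf library of line 15 alone gave 4 calls, among them ERF101, ERF35 and EREBP1, and in leaves fitted alone none of the 5 passed.

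**Figure D3:**
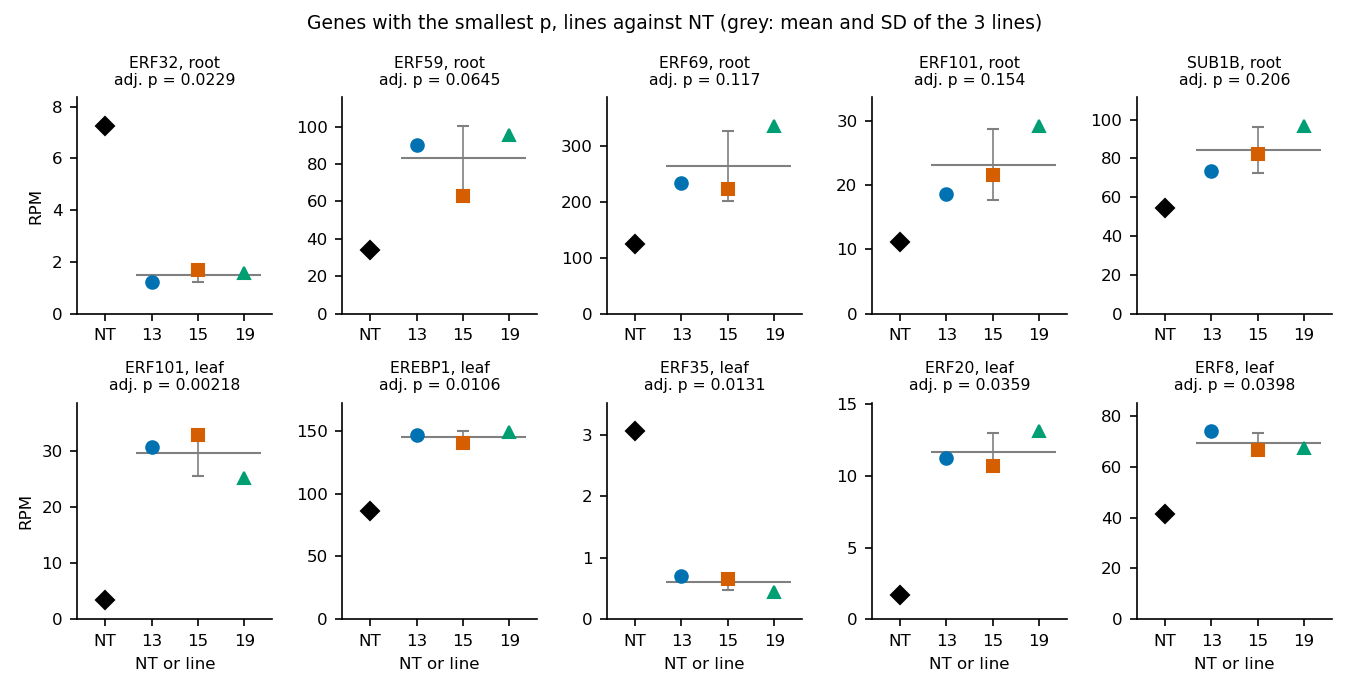
RPM in NT (diamond) and lines 13, 15 and 19 for the 5 genes with the smallest p in roots (top) and the 5 in leaves (bottom), with the mean and SD of the 3 lines in grey and limma's adjusted p above each panel. The single NT value lies outside the range of the lines in every panel, and ERF32 and ERF35 are the genes in which it lies above them.

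Subgroup A-4 holds 9 genes, of which 6 were tested. In roots 1 fell (ERF32), beside 1.16% of all tested genes called, and in leaves 1 rose (ERF20) and 1 fell (ERF35), beside 3.79%; with so few genes, no test of these shares was made. ERF33 was at 55.5 RPM in NT roots and 30.4, 40.9 and 30.5 RPM in the lines, and at 2.16 RPM in NT leaves and 3.58, 3.84 and 8.91 RPM in the lines. ERF34 was at 20.3 RPM in NT roots and 16.8, 18.2 and 14 RPM in the lines, and at 22.8 RPM in NT leaves and 43.8, 26.8 and 36.6 RPM in the lines. For this pair the lines lay below NT in roots and above NT in leaves, with no difference past the threshold in either tissue. ERF56 differed by 0.05 ± 0.15 in roots and 0.13 ± 0.15 in leaves.

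Whether the difference from NT itself differed between roots and leaves was tested as an interaction. None of the 52 genes passed (limma), beside 0.382% of all tested genes (0.123% with the larger value in roots, 0.259% in leaves), and 13 had an unadjusted p under 0.05, beside 15.2%. The smallest adjusted p belonged to ERF101, whose root difference minus its leaf difference was -1.81 ± 0.35 on the log2 scale (adjusted p = 0.0891). ERF32 followed (-1.65 ± 0.35, adjusted p = 0.106), then EREBP1 (-0.59 ± 0.14, adjusted p = 0.127), ERF59 (1.23 ± 0.33, adjusted p = 0.166) and the adaptor subunit Os08g0243900 (-0.62 ± 0.17, adjusted p = 0.174). With a pseudocount of 5 RPM, ERF32 passed (-0.90, adjusted p = 0.0330).

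**Figure D4:**
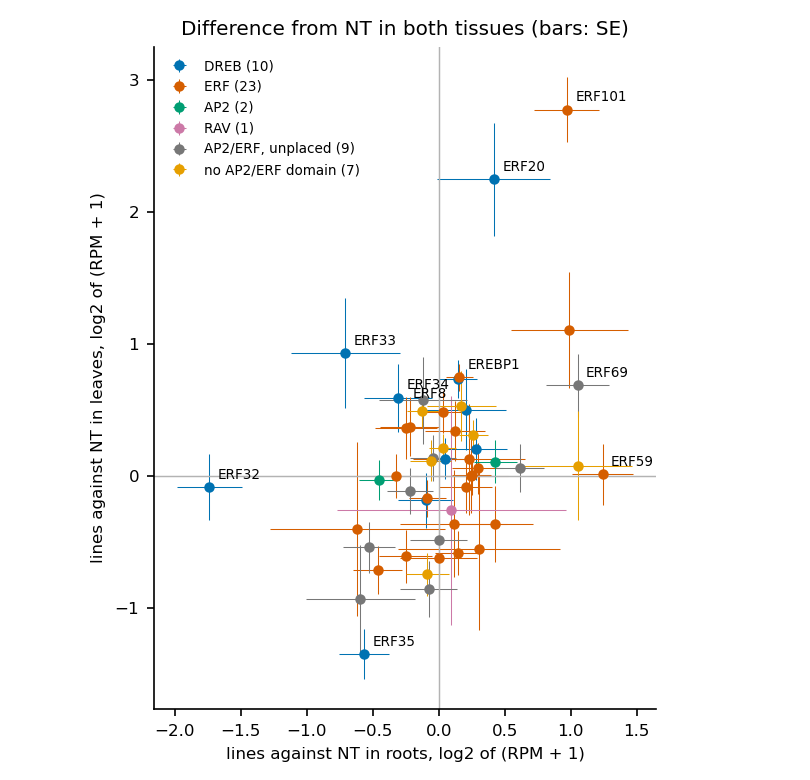
Difference of the lines from NT in roots (x) and leaves (y) for the 52 tested genes, on the log2(RPM + 1) scale with SE bars, coloured by class. Most genes lie near the centre; ERF101 and ERF20 are high on the leaf axis, ERF35 is low on it, and ERF32 and ERF59 lie at opposite ends of the root axis.

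In leaves 1 line library stood apart for several genes. Among the 32 genes of the set that averaged 5 RPM or more in leaves, 4 were at least 1.5 times higher in line 15 than in every other leaf library, beside 1.73% of all such genes. OsRAV2 was at 14.5, 4.10, 34.5 and 10.9 RPM in the leaves of NT and lines 13, 15 and 19. ERF91 was at 17.6, 11, 30.9 and 6.26 RPM, and ERF7 (Os06g0166400), a DREB-type gene, at 12.9, 13.9, 27.1 and 17.4 RPM. ERF62 was the last of the 4. All of them were higher in roots than in leaves, and root markers summed to 4.08 RPM in that library, beside 4.35 RPM in line 13, in which none of the 4 was raised, and at most 0.362 RPM in NT and line 19. The part of root material in these values was not tested, and the deduction inferred below may have lowered these marker sums. Without that leaf library, 44 genes were still called between tissues, 37 of them higher in roots. By the same 1.5-fold rule, the NT leaf library lay below every other leaf library for 6 of the 32 genes, beside 5.31% of all such genes. These included ERF101, ERF20, EREBP1 and ERF8, the genes called higher in line leaves. NT leaves lay above the others for 1 gene, beside 2.32%.

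**Figure D5:**
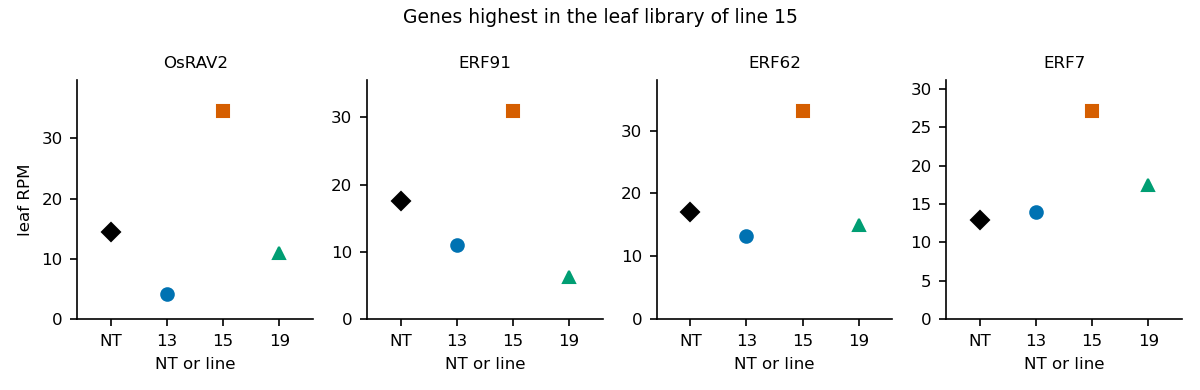
Leaf RPM of OsRAV2, ERF91, ERF62 and ERF7 in NT and lines 13, 15 and 19, on axes starting at 0. Line 15 is the highest library in all 4 panels, between 27.1 and 34.5 RPM.

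The upstream ethylene pathway was followed from a list of named genes. Ethylene is made from methionine by ACC synthases and ACC oxidases, and is perceived by receptors that repress the EIN2 and EIL branch acting on ERF genes. Of 12 synthesis genes 10 were tested, and none passed against NT in roots or leaves (limma; 2 had an unadjusted p under 0.05 in each tissue). Of all tested genes 1.16% and 3.79% passed in roots and leaves, and 13.5% and 21% had such a p, so these counts do not set the list apart. Of 13 perception and signalling genes 11 were tested, and none passed in roots (limma), where 1 had an unadjusted p under 0.05. In leaves 1 passed: the receptor gene OsERS1 (Os03g0701700) was at 41.5 RPM in NT against 59.5 ± 1.76 RPM (SD, n = 3) in the lines, 0.51 on the log2 scale with an adjusted p of 0.0486. In all, 6 of the 11 had an unadjusted p under 0.05 in leaves, each higher in the lines, beside 21% of all tested genes under that p in either direction. OsEIL2 (Os07g0685700) was at 64.3 RPM in NT leaves and 106 ± 12.4 RPM in the lines, with an adjusted p of 0.0721.

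Dehydrins and other LEA proteins, known as targets of DREB factors, were also followed. Of 35 such genes 9 reached the mean for testing, and none passed against NT in roots or leaves (limma; 1 in each tissue had an unadjusted p under 0.05), beside the same shares of all tested genes: 1.16% and 3.79% called, and 13.5% and 21% under that p.

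Of the 89 numbered family members that the wording rule missed, 43 were tested. Among these, none passed against NT in roots (limma; 4 had an unadjusted p under 0.05, beside 13.5% of all tested genes) and 2 were higher in line leaves (4.65%, beside 3.79% of all tested genes called in either direction). ERF68 (Os01g0313300) was at 14.5 RPM in NT leaves and 40.3 ± 3.16 RPM in the lines (1.41, adjusted p = 0.00944). DREB2A (Os01g0165000), a drought-inducible activator, was at 7.11 RPM in NT leaves and 13.7 ± 0.953 RPM in the lines (0.86, adjusted p = 0.0215). Between tissues 31 of the 43 passed (72.1%, beside 82.7%), 23 of them higher in roots and 8 higher in leaves. Of all tested genes 58.5% were higher in roots and 24.2% higher in leaves. The median root-minus-leaf difference of the 43 was 0.48, below the 0.59 of all tested genes and the 1.19 of the 52 genes.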

How the data were processed

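The deposited table holds 1 normalized signal per gene and library, which the authors state as reads per 1000000 (RPM) in the series design text; gene values sum to 1000000 per library. The tools Trimmomatic 0.39, Bowtie 1.2.3 and RSEM 1.2.21 and build IRGSP-1.0 are named per the submitters' processing notes, with roles and settings not given in the sources used here. Low values were not whole reads: 9.47% to 12.3% came out whole (within 0.1 read), and 41.5% to 55.3% after adding back 0.148% to 0.158% of what a gene totals across libraries. That pattern looks like a deduction made before deposit, and no count test was run. A value of 0 is therefore given as listed at 0.

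The 76 genes and the lists were chosen with earlier results of these data known. Subfamilies come from words of the annotation (Arabidopsis match first), and places from locus numbers. Genes with a mean of 1 RPM or more (21991) were fitted with limma 3.58.1 (R 4.3.3; lmFit, eBayes with a trend) on log2(RPM + 1), as 4 group means with 4 residual degrees of freedom and the lone NT sample assumed to vary like the lines. The SE of a line difference in 1 tissue therefore holds the spread of the lines in both tissues. Root against leaf was fitted as 4 against 4. Tests were two-sided, Benjamini-Hochberg adjusted over all genes, with a threshold of 0.05. The fit was also run on simulated data in which all libraries varied alike, so that run could not check the assumption on NT. Errors after ± are SE for log2 differences and SD over libraries for RPM. Such differences understate changes of low genes. Python 3.11.15 with pandas 2.3.3 and matplotlib 3.10.9 made the summaries.

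Genes named in the text passed a test (up to 10 in each direction per comparison, for lines against NT with all 3 lines on 1 side), had one of the 5 smallest p where fewer than 5 passed, were among the 8 with the highest RPM in a tissue (a rule for naming only, since RPM is not per length), or bear a well-known symbol. ERF7, ERF54, ERF67, ERF117, Os05g0486200 and the genes of other lists were named after their values were seen, as were the wording examples. Groups come from the sample titles. Root and leaf libraries of a line share the line: deviations from the group means correlated at 0.196, -0.0308 and 0.144 for lines 13, 15 and 19 over 15860 genes, and limma estimated a correlation within lines of 0.00483. Alternatives were the pseudocount, the filter, TMM and quantile scaling, the added-back reads, leaving out each line or NT, a fit of 1 tissue alone and a replicate block. Symbols were matched for 12 of 13 ethylene synthesis, 13 of 18 perception and signalling and 35 of 35 dehydrin and LEA entries. OsEIL1 has the same values as its neighbour and is uncertain.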

Additional observations from a re-analysis of the deposited data

Results flagged for a closer look

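Of 91 tissue groups of 4 libraries from the 52 tested genes (those reaching 1 RPM), 6 (6.59%) had 1 library far from the other 3. Over all tested genes the share was 7.43% of 40170 groups. The rule marks about 1 in 20 groups where all 4 libraries vary alike. Here each group holds NT beside the lines, so that figure is not the chance rate of this design. In roots, ERF32 was at 7.27 RPM in NT, with the lines between 1.2 and 1.69 RPM. Os05g0486200, annotated with a KRTCAP2 domain, was at 59.4 RPM in NT roots, with the lines between 70.6 and 72.4 RPM. In leaves the NT library stood apart for ERF35 at 3.06 RPM (lines 0.448 to 0.706), for EREBP1 at 86.3 RPM (lines 141 to 149) and for ERF93 at 52.8 RPM (lines 33.1 to 35.5). ERF93 did not pass against NT (limma, adjusted p = 0.141). Os06g0592500 was at 65.5 RPM in the roots of line 13, with the other root libraries between 47.8 and 49.6 RPM.

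For 5 of the 52 tested genes (9.62%) all 3 lines lay on one side of NT in roots and on the other side in leaves, beside 16.3% of all tested genes. Written as the root difference minus the leaf difference on the log2 scale, the contrast was -1.64 for ERF33 (limma interaction, adjusted p = 0.259), -0.90 for ERF34 (0.305), -0.62 for ERF67 (0.428), -0.62 for the adaptor subunit Os08g0243900 (0.174) and 0.72 for SUB1C (0.234). None passed. ERF67 was at 3.16 RPM in NT roots with 1.98 to 3.07 RPM in the lines, and at 0.0678 RPM in NT leaves with 0.211 to 0.622 RPM in the lines. SUB1C was at 49.1 RPM in NT roots with 52.6 to 56.1 RPM in the lines, and at 54.9 RPM in NT leaves with 30.2 to 41.6 RPM in the lines.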

How the results depend on the processing

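The count of genes called against NT in roots was 1 as reported. It was 0 with a pseudocount of 0.1 RPM, with a filter at a mean of 5 RPM (ERF32 then goes untested) and in roots fitted alone, 2 with a pseudocount of 5 RPM, and 0 to 1 when each line was left out. In leaves the count was 5 as reported, 3 without a filter, 3 under quantile normalization, 0 in leaves fitted alone, and 1 to 5 when each line was left out. The tissue interaction gave 0 calls, and 1 with a pseudocount of 5 RPM. Where not stated, the cause was not tested. Between tissues the count ran from 34 (filter at 5 RPM) to 56 (no filter), beside 44. Direction turned under TMM for ERF64 (-0.19), SNB (-0.013) and SUB1C (-0.19), and under quantile normalization for SUB1C (-0.045), all between tissues. Adding back the deducted reads changed no call of a named gene, but lowered the root-to-leaf ratio of ERF62 from 62.4 to 46.6. The ratio also fell for ERF66 (98.3 to 64.9), Os06g0592500 (96.1 to 63.6) and ERF45 (51.4 to 40.3). The mean leaf level of ERF59 went from 0.00704 to 0.389 RPM, so low leaf values of root-high genes depend on the deduction. With the line as a replicate block the counts were 1 in roots, 5 in leaves, 0 for the interaction and 45 between tissues, and SUB1C was the only named gene to lose its call. Restricting the set to the 67 AP2/ERF genes, chosen after seeing the data, gave 1, 5, 0 and 37 calls; leaving out the line 15 leaf library alone, likewise added, gave 4 in leaves (2 higher, 2 lower). The single NT library per tissue limits all comparisons with the lines, since leaving it out ends them.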
